A study of Mus musculus with 9 samples.

Results

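The goblet cell mucus genes are 8 genes, Muc2, Tff3, Agr2, Fcgbp, Zg16, Spink4, Creb3l1 and Galnt12, taken by their symbols from the 23951 genes of the expression tables. They were measured by RNA sequencing in 9 libraries of jejunal crypts of mice, 3 in each of 3 groups. Smad4 KO mice (Smad4f/f;Villin-CreER(T2)) and double mutants (Smad4f/f; Ex3f/+;Villin-CreER(T2)) received tamoxifen on 4 days and gave their crypts 1 day after the last dose. Villin-CreER(T2) is a recombinase that tamoxifen switches on in the intestinal epithelium. It deletes the floxed Smad4 alleles, and in the double mutants also exon 3 of 1 Ctnnb1 allele, the part of beta-catenin that marks it for degradation. The control group is given as vehicle-treated in the sample labels and as uninjected in the design text, and its genotype is given as control mouse, with no statement on Cre or floxed alleles. Ages of the mice are not given in the sources used here. Replicates carry the numbers 0, 1 and 2. The labels do not say whether each library is 1 mouse, so the p-values measure the spread between these libraries.

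Goblet cells are the mucus-secreting cells of the intestinal epithelium. They make the gel-forming mucin Muc2, fold it in the endoplasmic reticulum, dress it with O-linked sugars in the Golgi and store it in granules until release. Other proteins leave with it: Tff3, a trefoil peptide involved in epithelial repair, Fcgbp, a large mucus protein first described by its binding to IgG, Zg16, a lectin that binds Gram-positive bacteria, and Spink4, a member of the Kazal-type serine peptidase inhibitor family. Agr2 is a protein disulfide isomerase of the endoplasmic reticulum that Muc2 needs for its processing in mice, Creb3l1 is a transcription factor held in the membrane of that compartment, and Galnt12 belongs to the enzymes that attach the first sugar of an O-glycan.

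Promoter sequence was matched for 3 of the 8 genes, Muc2, Agr2 and Fcgbp, and is shown because these are the polymerising mucin, the isomerase that handles it and a mucus protein secreted with it. The windows run from 250 bases before to 50 bases after the start of the gene, 5′ to 3′, from RefSeq on GRCm38.p6. Muc2 lies on the plus strand at chr7:141690090-141690389, Agr2 on the plus strand at chr12:35992675-35992974 and Fcgbp on the plus strand at chr7:28070986-28071285. Capitals mark CAGCTG, an E-box of the kind bound by basic helix-loop-helix factors such as Atoh1.
Muc2: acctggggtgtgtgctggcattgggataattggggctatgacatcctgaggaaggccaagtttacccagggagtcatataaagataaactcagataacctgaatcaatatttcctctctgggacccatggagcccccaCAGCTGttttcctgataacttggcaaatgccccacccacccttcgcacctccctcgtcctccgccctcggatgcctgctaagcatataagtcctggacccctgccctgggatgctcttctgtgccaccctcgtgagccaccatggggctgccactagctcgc
Agr2: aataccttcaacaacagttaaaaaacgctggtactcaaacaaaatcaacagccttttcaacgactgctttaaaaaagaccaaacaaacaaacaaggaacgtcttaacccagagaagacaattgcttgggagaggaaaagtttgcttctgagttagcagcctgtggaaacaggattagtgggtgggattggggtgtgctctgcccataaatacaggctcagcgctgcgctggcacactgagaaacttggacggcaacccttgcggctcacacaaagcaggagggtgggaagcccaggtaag
Fcgbp: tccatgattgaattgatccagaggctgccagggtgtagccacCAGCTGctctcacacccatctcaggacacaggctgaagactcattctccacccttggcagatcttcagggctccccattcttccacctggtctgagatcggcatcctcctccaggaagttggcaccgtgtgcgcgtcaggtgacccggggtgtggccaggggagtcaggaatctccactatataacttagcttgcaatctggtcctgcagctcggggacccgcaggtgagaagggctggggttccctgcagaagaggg
The letters CAGCTG, which read the same on both strands, began 112 bases before the start in Muc2 and 208 bases before it in Fcgbp, and were not in the Agr2 window. They occur in 16.1% of the 27025 mouse promoter windows of this length. TATAA, searched on both strands, began 28 bases before the start in both Muc2 and Fcgbp, and again 174 bases before it in Muc2; 25.5% of windows hold it. ACGTG (19.7% of windows), CAGACA (21.0%) and CTTTGA (16.2%), each searched on both strands, were in none of the 3 windows. A match of letters is a description of the sequence and not of binding.

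The values are FPKM, fragment counts scaled to transcript length and to the number of mapped fragments. The Smad4 KO libraries stand in 1 table and the double mutants in another, each with the same 3 control libraries, and the tables were scaled separately. A control value in the double mutant table is 1.031, 1.06 or 1.043 times that in the Smad4 KO table, depending on the library, so each mutant group was tested against the controls of its own table and the mutant groups were not tested against each other. The comparisons share their controls and are not independent. Absolute depth is unknown. Relative depth was read from the most frequent ratio of control 0 to each library among genes of low value in both. It was 0.956 to 1.41 times that of control 0, and control 0 set against itself gave 0.99. Smad4 itself was 10.6 ± 0.56 FPKM in Smad4 KO and 49.8 ± 5.02 FPKM in control (SD, n = 3 each; log2 fold change -2.13, limma adjusted p = 0.00664), and 10.4 ± 0.64 FPKM in double mutant and 52.0 ± 5.96 FPKM in control (-2.21, limma adjusted p = 0.00176). The Smad4 KO call was lost with a replicate block (limma adjusted p = 0.234) and with sex as a covariate (0.0553). Ctnnb1, whose deleted exon a sum over the gene cannot show, was 276 ± 36.8 FPKM in double mutant and 304 ± 20.8 FPKM in control (limma adjusted p = 0.509).

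None of the 8 mucus genes was called changed in Smad4 KO crypts, and none in double mutant crypts. With 3 libraries a group this does not show that their levels were equal. The call was a limma adjusted p below 0.05 over all genes tested (two-sided, on log2(FPKM + 1), Benjamini-Hochberg), and 0 of 8 passed in either comparison. The background was 0.0338% of 11849 genes called in Smad4 KO and 18.5% of 11762 genes in double mutant, so 0 of 8 in Smad4 KO is near what the whole table gives. By direction, 0.00844% of genes were higher and 0.0253% lower in Smad4 KO, and 9.39% higher and 9.09% lower in double mutant. At an unadjusted p below 0.05, 0 of 8 passed in either comparison, against 19.1% of all genes in Smad4 KO and 36.6% in double mutant. No gene of the 8 had its 3 mutant libraries all above or all below its 3 control libraries, which 26.4% of all genes did in Smad4 KO and 42.6% in double mutant. The median log2 fold change of the 8 was 0.24 in Smad4 KO and 0.10 in double mutant, beside a median close to 0 over all genes in each comparison. In crypt RNA, fewer cells of a type and less RNA per cell cannot be told apart.

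**Figure D1:**
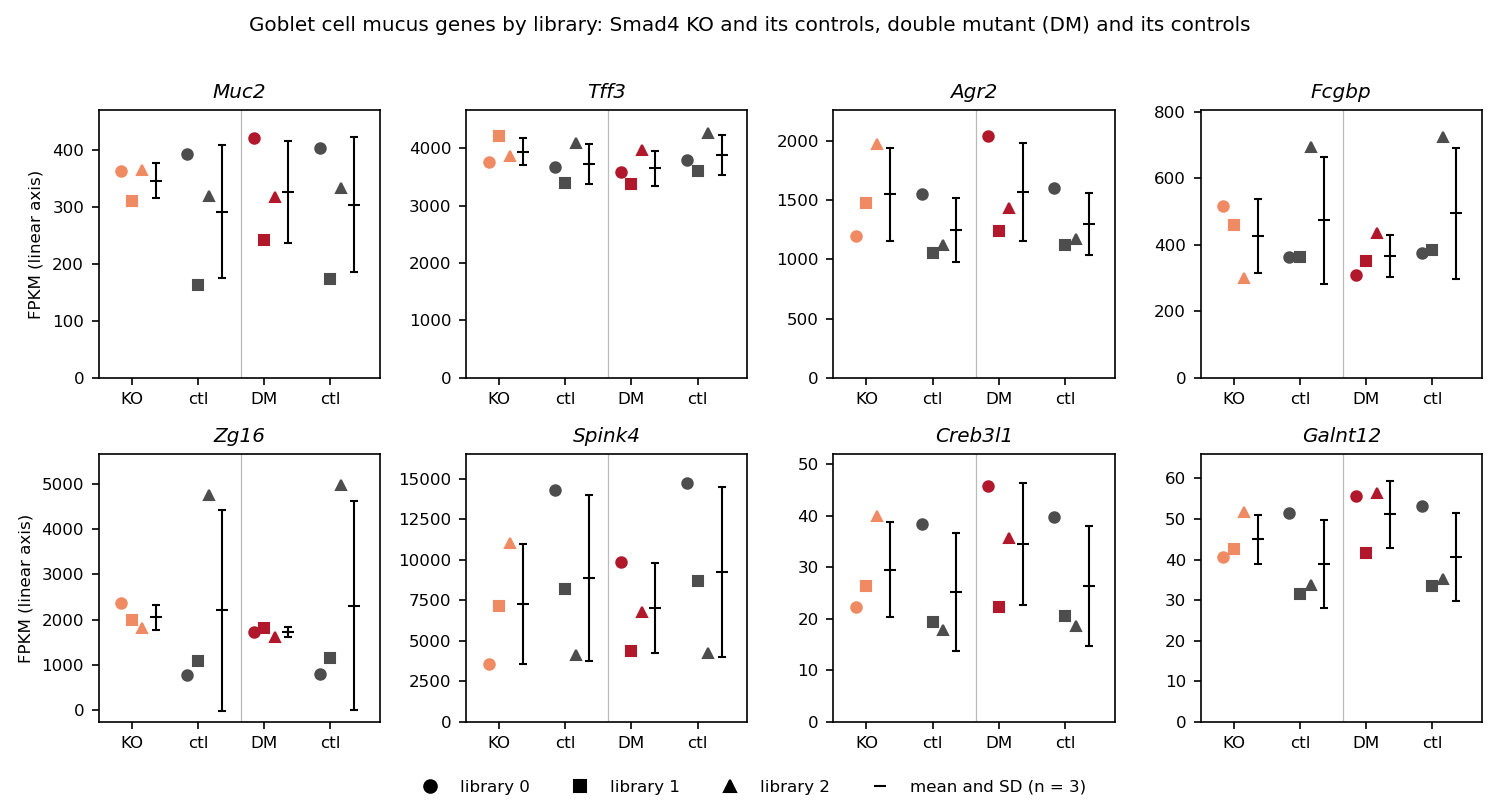
FPKM (linear axis) of the 8 mucus genes in each library. In each panel, Smad4 KO (KO) stands left of the controls (ctl) of its table and double mutant (DM) left of the controls of its own; circles, squares and triangles are libraries 0, 1 and 2, and bars give the mean and SD (n = 3). Mutant and control points overlap in every panel, and relative to their mean the controls are widest apart for Zg16, where control 2 stands at 4761 FPKM and control 0 at 776.7 FPKM.

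Muc2, the gel-forming mucin, was at 363.6, 310.4 and 364.0 FPKM in Smad4 KO libraries 0, 1 and 2, against 391.8, 163.2 and 319.1 FPKM in the controls. In the double mutants it was at 419.9, 241.5 and 316.4 FPKM, against 404.0, 172.9 and 332.9 FPKM in the controls on that table's scale. The mutant values fell inside or close to the control range, and control 1 was the lowest library of the 9. The log2 fold change was 0.33 in Smad4 KO (95% interval -0.49 to 1.16, limma adjusted p = 0.626) and 0.15 in double mutant (-0.72 to 1.03, limma adjusted p = 0.785). As folds these intervals run from 0.711 to 2.24 in Smad4 KO and from 0.606 to 2.04 in double mutant. Changes within these intervals are not excluded with 3 libraries a group. Without control 1 the sign turned in both comparisons, to -0.04 in Smad4 KO and -0.21 in double mutant, and without double mutant 0 it was -0.05.

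Tff3, the trefoil peptide, had the lowest coefficient of variation between libraries of the 8 in Smad4 KO and in control, while in double mutant that of Zg16 was lower. It was at 3751, 4214 and 3857 FPKM in Smad4 KO, against 3678, 3391 and 4091 FPKM in control. The double mutants had 3587, 3376 and 3974 FPKM, against 3793, 3593 and 4267 FPKM in control. This coefficient was 6.16% in Smad4 KO and 8.32% in double mutant, against 9.46% and 8.92% in the controls of the same tables. The fold was 1.06 in Smad4 KO (95% interval 0.608 to 1.85, limma adjusted p = 0.911) and 0.939 in double mutant (0.611 to 1.44, limma adjusted p = 0.821). These intervals are wider than the spread of the 3 libraries alone would give, because limma draws a gene's variance towards that of genes of similar level.

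Fcgbp, the IgG-binding mucus protein, was at 515.7, 458.8 and 300.8 FPKM in Smad4 KO, against 364.2, 361.8 and 692.5 FPKM in control. Double mutant crypts held 309.4, 351.9 and 434.6 FPKM, against 375.6, 383.4 and 722.3 FPKM in control. Control 2 was the highest of all libraries, and the other two controls lay among the mutants. The log2 fold change was -0.12 in Smad4 KO (95% interval -0.96 to 0.72, limma adjusted p = 0.882) and -0.38 in double mutant (-1.09 to 0.33, limma adjusted p = 0.398). Without control 2 it was 0.19 in Smad4 KO and -0.07 in double mutant, and without Smad4 KO 2 it was 0.11.

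Zg16, the lectin, showed the widest spread between controls relative to the mean. It was at 2357, 1994 and 1808 FPKM in Smad4 KO, against 776.7, 1079 and 4761 FPKM in control. In double mutant the levels were 1733, 1823 and 1609 FPKM, against 800.9, 1143 and 4966 FPKM in control. All 6 mutant libraries lay between control 1 and control 2. The coefficient of variation was 13.6% in Smad4 KO and 6.24% in double mutant, against 101% and 100.4% in the controls. Because of that spread the mean level and the fitted change differ in sign: the mean was 2053 ± 279 FPKM in Smad4 KO and 2205 ± 2218 FPKM in control (SD, n = 3 each), while the log2 fold change was 0.36 (95% interval -1.35 to 2.08, limma adjusted p = 0.811). The double mutants averaged 1722 ± 107 FPKM and their controls 2303 ± 2312 FPKM, with a log2 fold change of 0.05 (-1.57 to 1.67, limma adjusted p = 0.963). Without control 0 the log2 fold change was -0.15 in Smad4 KO and -0.47 in double mutant. Without control 2 it was 1.16 in Smad4 KO (limma adjusted p = 0.321) and 0.84 in double mutant (limma adjusted p = 0.085), again uncalled. Whether the spread itself differed between groups was not tested.

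Spink4, the peptidase inhibitor family member, had the highest mean level of the 8 in every group and also a wide spread. It was at 3597, 7177 and 11018 FPKM in Smad4 KO, against 14277, 8217 and 4101 FPKM in control. In double mutant Spink4 was at 9881, 4374 and 6794 FPKM, against 14722, 8707 and 4278 FPKM in control. The highest library was 3.06 times the lowest in Smad4 KO and 2.26 times in double mutant, against 3.48 times in the controls of the first table. Its log2 fold change was -0.25 in Smad4 KO (95% interval -2.01 to 1.5, limma adjusted p = 0.88) and -0.30 in double mutant (-1.73 to 1.13, limma adjusted p = 0.741). Without control 0 the sign turned, to 0.18 in Smad4 KO and 0.12 in double mutant. Without Smad4 KO 0 it was likewise 0.18.

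Agr2, the disulfide isomerase, was at 1198, 1476 and 1972 FPKM in Smad4 KO, against 1554, 1057 and 1123 FPKM in control. In double mutant Agr2 stood at 2038, 1239 and 1431 FPKM, against 1602, 1119.9 and 1171 FPKM in control. In each group 1 library stood above the other two: Smad4 KO 2, double mutant 0 and control 0. The log2 fold change was 0.31 in Smad4 KO (95% interval -0.43 to 1.04, limma adjusted p = 0.612) and 0.26 in double mutant (-0.40 to 0.92, limma adjusted p = 0.524).

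Creb3l1, the membrane-held transcription factor, had the lowest mean of the 8 in every group. It was at 22.22, 26.43 and 39.92 FPKM in Smad4 KO, against 38.45, 19.36 and 17.86 FPKM in control. The double mutants had 45.77, 22.22 and 35.74 FPKM, against 39.65, 20.51 and 18.63 FPKM in control. Control 0 lay with the higher mutant libraries and the other two controls below all 6 mutants. The log2 fold change was 0.26 in Smad4 KO (95% interval -0.59 to 1.11, limma adjusted p = 0.714) and 0.41 in double mutant (-0.47 to 1.28, limma adjusted p = 0.454).

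Galnt12, the glycosyltransferase, had the lowest adjusted p of the 8 in both comparisons without passing. It was at 40.55, 42.61 and 51.74 FPKM in Smad4 KO, against 51.45, 31.51 and 33.82 FPKM in control. The double mutants had 55.57, 41.52 and 56.26 FPKM, against 53.06, 33.39 and 35.27 FPKM in control. As for Creb3l1, control 0 lay among the mutants and the other two controls below them. The fold was 1.17 in Smad4 KO (limma adjusted p = 0.588) and 1.27 in double mutant (95% interval 0.888 to 1.81, limma adjusted p = 0.29).

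**Figure D2:**
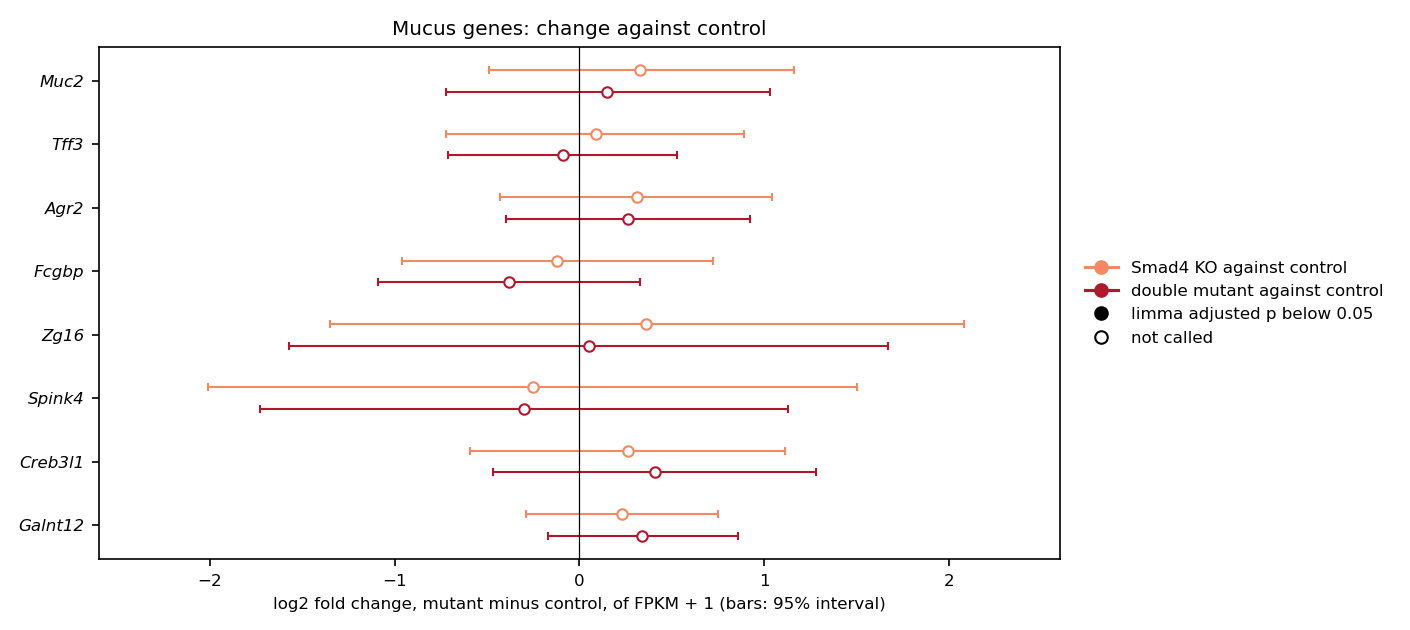
Log2 fold change, mutant minus control, of FPKM + 1 for the 8 mucus genes, with 95% intervals, for Smad4 KO (orange) and double mutant (red), each against the controls of its own table. Open points are genes that were not called; all 16 are open, every interval spans 0, and those of Zg16 and Spink4 are the widest.

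FPKM is a level per length of transcript, so the 8 can be set in order within a group. By mean the order was the same in Smad4 KO, double mutant and control: Spink4, Tff3, Zg16, Agr2, Fcgbp, Muc2, Galnt12 and Creb3l1. Agr2 stood above Fcgbp, and Muc2 above Galnt12, with ranges apart in all 3 groups. The neighbours Zg16 and Agr2, and Fcgbp and Muc2, overlapped in all 3 groups. Spink4 stood above Tff3 in 2 of 3 Smad4 KO libraries, 3 of 3 double mutant libraries and 3 of 3 controls. Single libraries departed from the order of the means. In control 2, Zg16 exceeded both Tff3 and Spink4, and in control 0 Zg16 lay below Agr2 and Fcgbp below Muc2. Galnt12 was above Creb3l1 in 3 of 3 libraries of every group, though their ranges overlapped in double mutant and in control.

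The summed level of the 8 was 11844, 15700.1 and 19412 FPKM in Smad4 KO, against 21132, 14319 and 15139 FPKM in control. In double mutant it was 18069.7, 11469 and 14651 FPKM, against 21789.9, 15173 and 15790.1 FPKM in control. That is 2.05%, 2.6% and 2.58% of all FPKM in Smad4 KO and 2.48%, 2.0% and 2.46% in double mutant, against 2.87%, 2.52% and 2.42% in control. The makeup of the sum varied more than its size. Spink4 gave 30.4%, 45.7% and 56.8% of it in Smad4 KO and 54.7%, 38.1% and 46.4% in double mutant, against 67.6%, 57.4% and 27.1% in control. Zg16 gave 19.9%, 12.7% and 9.32% in Smad4 KO and 9.59%, 15.9% and 11.0% in double mutant, against 3.68%, 7.53% and 31.4% in control. In each group the library with the largest Spink4 share had the smallest Zg16 share, though shares of 1 sum constrain each other.

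Within groups the genes moved between libraries in 2 patterns. Spink4, Creb3l1 and Agr2 were highest in Smad4 KO 2, in double mutant 0 and in control 0. Galnt12 shared this except among the double mutants, where library 2 stood 0.15 and library 0 stood 0.13 above the group mean on the log2 scale. Fcgbp ran the other way, lowest in Smad4 KO 2 and in double mutant 0, and highest in control 2. Zg16 was likewise highest in control 2 (1.58 above the control mean of log2(FPKM + 1)) and lowest in control 0 (-1.03), but among the double mutants it stayed within 0.10 of the group mean. Muc2 was highest in control 0 and double mutant 0 and lowest in library 1 of every group. Tff3 stayed within 0.14 of its group mean in all 9 libraries.

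**Figure D3:**
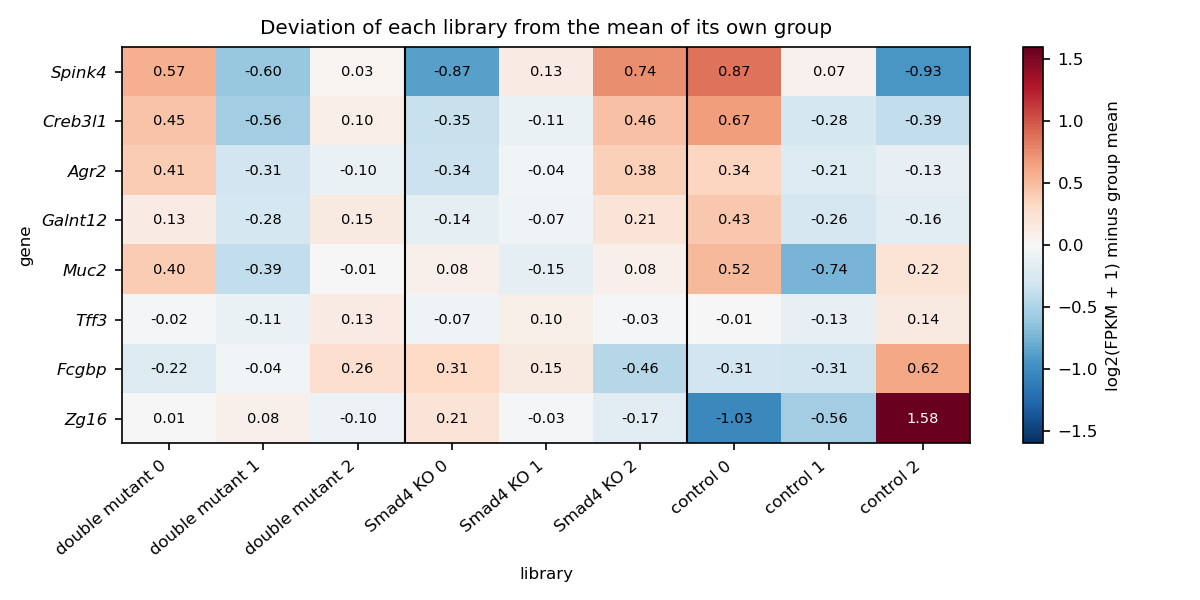
Deviation of each library from the mean of its own group, in log2(FPKM + 1), for the 8 mucus genes (rows) in double mutant, Smad4 KO and control libraries (columns); red is above and blue below the group mean. Spink4, Creb3l1 and Agr2 are red together in double mutant 0, Smad4 KO 2 and control 0, while Zg16 reaches 1.58 in control 2.

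Markers of other cell types varied between the same libraries. The summed level of 19 Paneth cell markers, defensins and lysozyme among them, was 10799, 78117 and 169155 FPKM in Smad4 KO, against 175031, 83103 and 66089 FPKM in control. In double mutant it was 114551, 41189 and 60791 FPKM, against 180482, 88055 and 68933 FPKM in control. The libraries with the most Paneth cell RNA were Smad4 KO 2, double mutant 0 and control 0, the same that were highest in Spink4, Agr2 and Creb3l1. Guca2b, which is not a Paneth cell product, had stood in this list and was taken out after the data were seen; it was the 1 member called, lower in double mutant (limma adjusted p = 0.0289). With it 1 of 17 tested was called in double mutant, and without it 0 of 16, beside 18.5% of all genes. In Smad4 KO 0 of 17 were called, beside 0.0338%. Without Guca2b the fitted log2 fold change, never called, was negative for 16 of 16 in Smad4 KO and 15 of 16 in double mutant, with medians of -0.75 and -0.51. Single libraries went both ways. The mean of these markers over the control mean, on the log2 scale, was -3.29, -0.37 and 1.1 in Smad4 KO 0, 1 and 2. In double mutant 0, 1 and 2 it was 0.39, -1.39 and -1.0. The markers were measured in the same libraries, so their signs are not independent. The part of Paneth cell RNA in the Spink4, Agr2 and Creb3l1 values was not tested.

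The summed level of 22 enterocyte markers was 16665, 1774 and 2969.8 FPKM in Smad4 KO, against 5194, 6798 and 14092 FPKM in control. In double mutant it was 1799, 3126 and 2926 FPKM, against 5356, 7203 and 14699 FPKM in control. Control 2, with the most Zg16 and Fcgbp, also had the most enterocyte RNA of the controls, and Smad4 KO 0 the most of its group. In double mutant 16 of the 22 fell and 0 rose, beside 9.09% of all genes lower; in Smad4 KO 0 of 22 were called, beside 0.0338%. Their part in the Zg16 and Fcgbp values was not tested. Connective tissue and endothelial markers (14 genes) summed to 14.67, 4.817 and 80.34 FPKM in Smad4 KO and 52.64, 4.698 and 5.688 FPKM in double mutant, against 4.268, 2.424 and 5.383 FPKM in control, so that Smad4 KO 2 and double mutant 0 stood apart there as well. Without Smad4 KO 2 the log2 fold change of the 8 genes stayed uncalled, and the same held without double mutant 0.

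**Figure D4:**
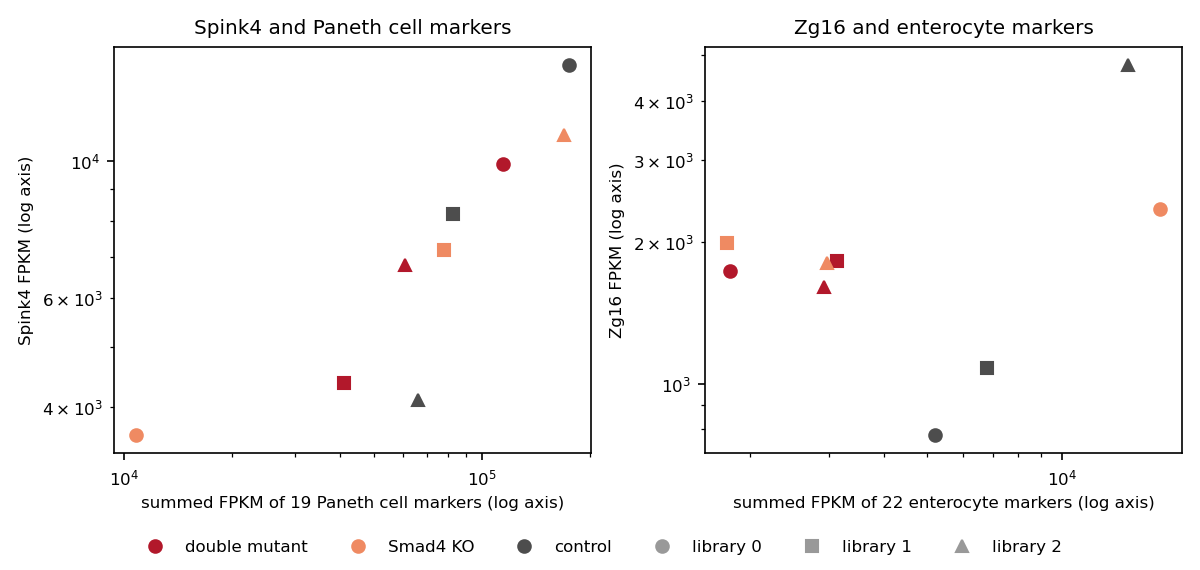
Left, Spink4 (FPKM, log axis) against the summed FPKM of 19 Paneth cell markers (log axis); right, Zg16 (FPKM, log axis) against the summed FPKM of 22 enterocyte markers (log axis), in double mutant, Smad4 KO and control libraries, each mutant on the scale of its own table and the controls as in the Smad4 KO table. Spink4 runs from 3597 FPKM in the library with the least Paneth cell RNA to 14277 FPKM in the one with the most, and control 2 stands alone at 4761 FPKM of Zg16.

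The rest of the goblet cell programme was read from 6 lists. Of the other secreted products, 12 were listed and 7 reached the 1 FPKM mean needed for a test; 0 rose and 2 fell in double mutant, where 9.09% of all genes were lower, and 0 were called in Smad4 KO, where 0.0338% of all genes were. The list's median log2 fold change was -0.71 in Smad4 KO and -0.61 in double mutant, beside a value close to 0 over all genes. Its tested members include Lypd8, a cell surface protein, so the list is not of secreted products alone. The smallest p in the list was that of Clca3, or gob-5, a secreted goblet cell protein of the mucus. It was at 354.8, 270.2 and 166.7 FPKM in Smad4 KO, against 1119.9, 873.3 and 558.9 FPKM in control, with all mutant libraries below all controls (log2 fold change -1.69 ± 0.38 SE, limma adjusted p = 0.13, not called). The double mutants had 193.1, 180.6 and 138.6 FPKM, against 1155, 925.4 and 582.9 FPKM in control, and Clca3 fell by 2.33 on the log2 scale (SE 0.28, 95% interval -3.01 to -1.65, limma adjusted p = 0.0121). The call was lost without double mutant 0 (limma adjusted p = 0.0512) or double mutant 2 (0.0644). Set against Tff3 of the same library, Clca3 was 5.38%, 5.35% and 3.49% of the Tff3 level in double mutant and 9.46%, 6.41% and 4.32% in Smad4 KO, against 30.4%, 25.8% and 13.7% in control.

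Klk1, a tissue kallikrein, was the other secreted product that fell in double mutant, to 72.4 ± 12.5 FPKM, against 111 ± 11.1 FPKM in control (SD, n = 3 each; log2 fold change -0.61, limma adjusted p = 0.0409). That call was lost on leaving out any 1 of the 6 libraries (limma adjusted p 0.0567 to 0.147), with sex as a covariate (0.0762) and with all 9 libraries joined (0.0735). The log2 fold change of Sval1 was positive in both comparisons. It was at 3.906, 2.535 and 8.113 FPKM in Smad4 KO, against 2.466, 1.179 and 1.283 FPKM in control, with all mutant libraries above all controls (log2 fold change 1.07, limma adjusted p = 0.23). In double mutant it was at 8.635, 5.872 and 1.582 FPKM, against 2.543, 1.249 and 1.338 FPKM in control (1.07, limma adjusted p = 0.176). Ang4, an antimicrobial ribonuclease made by goblet and Paneth cells and a member of both lists here, was at 600.1, 3148 and 5249 FPKM in Smad4 KO, against 22746, 8942 and 2202 FPKM in control (limma adjusted p = 0.434). Of the transmembrane mucins 5 of 9 listed were in the tables and 2 were tested, Muc13 and Muc4, and neither was called. Over all genes 18.5% were called in double mutant and 0.0338% in Smad4 KO. Muc13 was 521 ± 35.8 FPKM in double mutant and 717 ± 176 FPKM in control (SD, n = 3 each; limma adjusted p = 0.178).

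Among enzymes of mucin O-glycosylation, the group to which Galnt12 belongs, 1 of 24 tested fell and 0 rose in double mutant, and 0 of 25 were called in Smad4 KO, beside 18.5% of all genes called in double mutant and 0.0338% in Smad4 KO. The median was 0.14 in Smad4 KO and 0.04 in double mutant. The gene that fell was St3gal4, a sialyltransferase that caps sugar chains. It was at 167.9, 184.8 and 134.5 FPKM in double mutant, against 662.1, 626.0 and 896.4 FPKM in control (log2 fold change -2.15, SE 0.20, 95% interval -2.63 to -1.67, limma adjusted p = 0.00791). Smad4 KO crypts had 248.0, 200.5 and 123.8 FPKM, against 642.1, 590.8 and 859.4 FPKM in control (-1.90, limma adjusted p = 0.108, not called). All mutant libraries lay below all controls in both. Without double mutant 2 the limma adjusted p was 0.0525. Galnt3, which like Galnt12 starts O-glycans, had 29.3 ± 0.553 FPKM in Smad4 KO and 20.3 ± 4.67 FPKM in control (SD, n = 3 each; log2 fold change 0.53, limma adjusted p = 0.186), and 30.6 ± 1.14 FPKM in double mutant and 21.2 ± 4.63 FPKM in control (0.53, limma adjusted p = 0.0603). It was not called in either comparison.

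Folding and export genes of the endoplasmic reticulum, the setting of Agr2 and Creb3l1, gave 0 of 30 called in both comparisons, beside 18.5% of all genes in double mutant and 0.0338% in Smad4 KO, with medians of 0.04 in Smad4 KO and -0.07 in double mutant. At an unadjusted p below 0.05 the limma counts were 3 of 30 in Smad4 KO and 9 of 30 in double mutant, beside 19.1% and 36.6% of all genes. Sdf2l1, a chaperone complex component, was at 93.72, 102.1 and 99.29 FPKM in Smad4 KO, against 64.61, 41.55 and 68.35 FPKM in control (log2 fold change 0.78, limma adjusted p = 0.158). In double mutant it was at 114.4, 80.19 and 97.09 FPKM, against 66.63, 44.02 and 71.29 FPKM in control (0.69, limma adjusted p = 0.0774). The mutant libraries were above the controls in both, without a call. Creb3l2, a relative of Creb3l1, was 5.98 ± 0.867 FPKM in double mutant and 11.2 ± 4.16 FPKM in control (SD, n = 3 each; limma adjusted p = 0.0809).

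Of 22 tested granule and other goblet cell markers, 1 rose and 3 fell in double mutant, and 0 were called in Smad4 KO. A count of 4 of 22 in double mutant is near the 18.5% of all genes called there. In Smad4 KO 0.0338% of all genes were called, so 0 of 22 is near that share. The medians were 0.0 in Smad4 KO and -0.14 in double mutant. Scin, or scinderin, an actin-severing protein of secretory cells, fell to 21.42, 22.01 and 30.24 FPKM in double mutant, against 118.7, 116.5 and 101.8 FPKM in control (log2 fold change -2.16, SE 0.15, limma adjusted p = 0.0061). It stayed called without any 1 of the 6 libraries (limma adjusted p 0.00469 to 0.0314). In Smad4 KO Scin was at 49.35, 31.78 and 18.36 FPKM, against 115.1, 109.9 and 97.61 FPKM in control (-1.77, limma adjusted p = 0.116, not called). Capn9, a calpain of the digestive tract, fell to 8.21 ± 0.789 FPKM in double mutant, against 15.3 ± 2.87 FPKM in control (SD, n = 3 each; limma adjusted p = 0.0216). Vamp8, a vesicle fusion protein of granule release, fell to 94.2 ± 12.1 FPKM, against 135 ± 10.8 FPKM in control (limma adjusted p = 0.0421). Atp2c2, a calcium and manganese pump of the secretory pathway, rose to 18.5 ± 4.4 FPKM, against 9.02 ± 1.85 FPKM in control (log2 fold change 0.95, limma adjusted p = 0.0317). The Capn9 call was lost without any 1 of the double mutant libraries (limma adjusted p 0.056 to 0.0915), the Vamp8 call without any 1 of the 6 libraries (0.0537 to 0.156) and the Atp2c2 call likewise (0.0513 to 0.103). The Vamp8 call also ended with the replicate block (limma adjusted p = 0.0865) and with sex as a covariate (0.0608).

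Factors that set secretory fate gave 3 of 16 higher and 1 of 16 lower in double mutant, and 0 of 16 called in Smad4 KO, with medians of 0.16 in Smad4 KO and 0.31 in double mutant. Over all genes 9.39% were higher and 9.09% lower in double mutant, so with 16 genes the count is not far from the background. In Smad4 KO 0.0338% of all genes were called, so 0 of 16 is near that share. The 3 called higher were Neurog3, Hes6 and Foxa2, and Atoh1, Spdef, Klf4 and Gfi1 were not among them. Atoh1, the master factor of the secretory lineage, was at 13.36, 23.39 and 28.73 FPKM in Smad4 KO, against 27.73, 17.84 and 15.91 FPKM in control (log2 fold change 0.06, limma adjusted p = 0.938). In double mutant it was at 26.02, 18.63 and 24.43 FPKM, against 28.6, 18.91 and 16.6 FPKM in control (0.13, limma adjusted p = 0.714). Spdef, which drives goblet and Paneth cell maturation, had log2 fold changes of 0.06 in Smad4 KO and 0.07 in double mutant (limma adjusted p = 0.954 and 0.913), with libraries at 29.29, 34.37 and 54.35 FPKM in Smad4 KO, against 66.24, 33.44 and 21.57 FPKM in control. Like Spink4 and Creb3l1, Spdef was highest in Smad4 KO 2 and in control 0. Gfi1, Xbp1 and Ern2, factors of secretory maturation and of the goblet cell stress response, had log2 fold changes between -0.06 and 0.27 and were not called.

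Klf4, a factor of goblet cell differentiation in the mouse colon, fell to 15.37, 14.37 and 16.16 FPKM in double mutant, against 23.28, 19.47 and 22.5 FPKM in control (log2 fold change -0.48, limma adjusted p = 0.029). In Smad4 KO it was 16.7 ± 2.92 FPKM, against 20.8 ± 2.2 FPKM in control (SD, n = 3 each; limma adjusted p = 0.335). Neurog3, the factor of the enteroendocrine lineage, rose to 9.55, 8.255 and 13.72 FPKM in double mutant, against 4.742, 4.798 and 4.638 FPKM in control (0.98, limma adjusted p = 0.0218). Smad4 KO crypts had 5.12 ± 1.07 FPKM of Neurog3 and control 4.52 ± 0.0763 FPKM (SD, n = 3 each; limma adjusted p = 0.664). Hes6, which opposes Hes1, rose to 63.8 ± 6.83 FPKM in double mutant, against 40.8 ± 5.77 FPKM in control (limma adjusted p = 0.0299), and Foxa2, a forkhead factor of endoderm, to 6.96 ± 0.707 FPKM, against 4.18 ± 0.816 FPKM (limma adjusted p = 0.037). Each of these 4 calls was lost without some single libraries. The Neurog3 call ended without control 1, control 2, double mutant 0 or double mutant 2 (limma adjusted p 0.0515 to 0.0683), and the Klf4 call without any 1 library other than control 1 (0.0663 to 0.0975). The Hes6 call ended without any 1 library other than control 0 (0.0516 to 0.114), as did the Foxa2 call (0.0653 to 0.135). With sex as a covariate the limma adjusted p was 0.057 for Hes6 and 0.0618 for Foxa2. The Foxa2 call also ended with the replicate block (0.0597) and with all 9 libraries joined (0.0641), as did the Klf4 call when joined (0.0542).

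**Figure D5:**
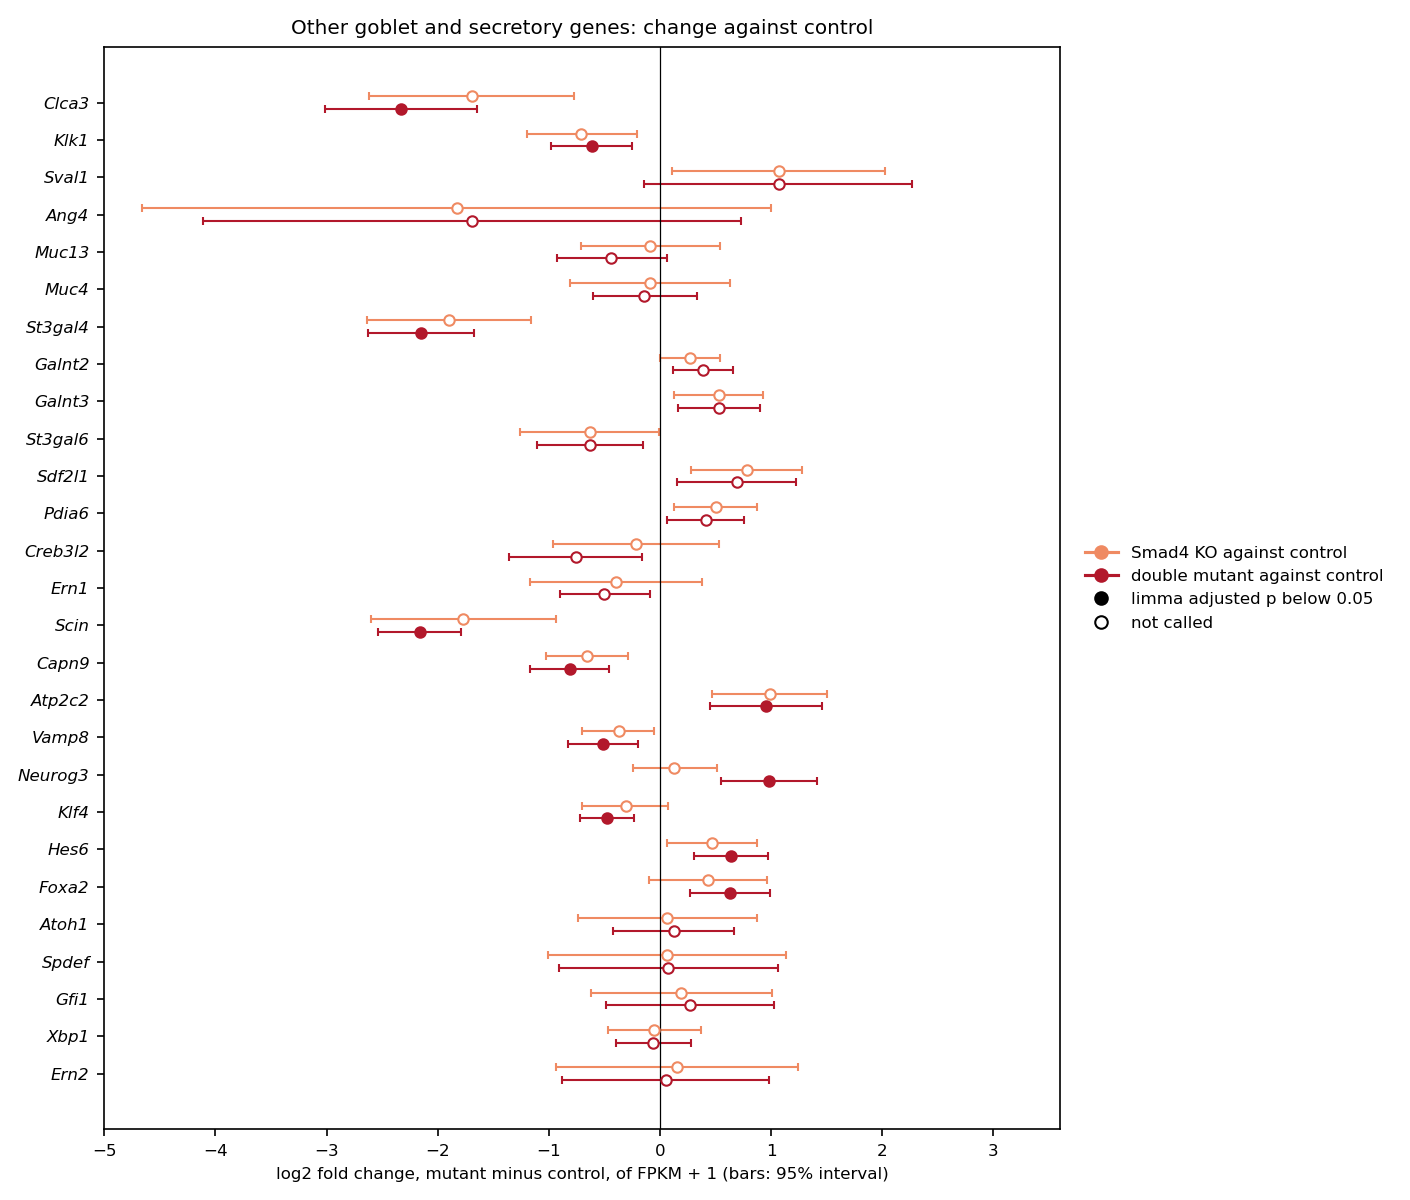
Log2 fold change, mutant minus control, of FPKM + 1 for the other goblet cell and secretory genes named in the text, with 95% intervals, for Smad4 KO (orange) and double mutant (red). Filled points have a limma adjusted p below 0.05; 11 are filled, all in double mutant, and Clca3, Scin and St3gal4 lie farthest left among them, at -2.33, -2.16 and -2.15.

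The genes whose levels followed Muc2 most closely over the 9 libraries were Ano7 (Pearson r = 0.975), Rnf215 (0.957), Trim41 (0.951), Ccnl2 (0.948), Ikbkb (0.941) and Firre (0.937). They were the top 6 of 8403 genes averaging 5 FPKM or more in both comparisons, on log2(FPKM + 1). The double mutant table was first divided by the ratio of the shared controls. Predicted genes, genes with clone-type names and small RNA genes were left out of the search. The 9 points share library depth and preparation, so the values are a description. None of the other mucus genes is among these 6, since the 8 were left out of the search. Set against Tff3 of the same library, Muc2 was 7.36% to 9.69% of the Tff3 level in Smad4 KO and 7.15% to 11.7% in double mutant, against 4.81% to 10.7% in control. Among double mutants and among controls this share peaked in library 0 (11.7% and 10.7%), where Spink4 was also highest. In Smad4 KO it also peaked in library 0 (9.69%), but there Spink4 was the lowest of its group (3597 FPKM).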

How the data were processed

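RNA of jejunal crypts was sequenced from libraries made with an Illumina TruSeq kit, version 2, which does not mark strand, per the labels, after EDTA dissociation (3 mM) and a 70 micron filter. The deposited values are FPKM; the submitters' processing notes name TopHat2 2.1.1, Cuffnorm 2.2.1, Cuffdiff 2.2.1 and build mm9. Which gene annotation they used is not stated there. Without strand, overlapping and antisense genes share fragments.

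The fit of each table used limma 3.58.1 under R 4.3.3 (moderated variance with a mean trend) on log2(FPKM + 1), for genes averaging at least 1 FPKM over its 6 libraries; this scale understates the change of low genes, and the script was tested on simulated data. Errors are SDs over 3 libraries; an exact permutation test of 3 against 3 cannot go below p = 0.1. Promoters come from RefSeq (3 of 8 genes matched); coordinates are GRCm38.p6.

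The members and lists were chosen with earlier results of these data known. The text names all 8 members, 6 fixed factors, and the 6 genes most like Muc2 of those searched. From each goblet list it describes some or all of the up to 4 genes with the smallest p. Of these, Galnt2, St3gal6, Pdia6 and Ern1 are only plotted. Guca2b, the 1 called member of the Paneth list, was taken out of it after the data were seen. Clca3 is the tables' older symbol for the gene RefSeq calls Clca1. Deviations of same-numbered mutant and control libraries were weakly correlated (r -0.101 to 0.202). In Smad4 KO these were -0.0982, 0.202 and -0.101 for numbers 0, 1 and 2. There Smad4 KO 0 was most correlated with control 2 (r = 0.195), and Smad4 KO 2 with control 0 (0.184). In double mutant the same-numbered values were 0.0541, 0.123 and 0.0405, each the highest for its library. Such small values do not settle whether the numbers pair the libraries.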

Additional observations from a re-analysis of the deposited data

How the results depend on the processing

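The count of mucus genes called was 0 in both comparisons under all 17 alternatives, which were a pseudocount of 5 or 0.1, no filter on low values, a mean of at least 5 FPKM, no variance trend, median-of-ratios factors, quantile normalization, scaling without the 50 highest genes, each library left out, the replicate block, sex as a covariate (read from Xist and Y-linked genes: 2 females and 1 male in Smad4 KO and in double mutant, 1 female and 2 males in control) and all 9 libraries joined. With no filter the standard error of Spink4 rose from 0.72 to 10.74 in Smad4 KO and from 0.59 to 7.48 in double mutant. That of Tff3 rose from 0.33 to 2.96 and from 0.26 to 1.94. That fit could therefore hardly call either gene. The block called 0 mucus genes in each. Whether the numbers pair the libraries is not known. Signs turned in some fits, always without a call. In Smad4 KO, Tff3 was -0.06 with quantile normalization, and leaving out 1 library gave Muc2 -0.04 to 0.59, Fcgbp -0.28 to 0.19, Zg16 -0.15 to 1.16 and Spink4 -0.72 to 0.18. In double mutant, Zg16 was -0.23 with quantile normalization and -0.32 with sex, and leaving out 1 library gave Muc2 -0.21 to 0.40, Zg16 -0.47 to 0.84 and Spink4 -0.77 to 0.12. The cause was not tested.

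Of the 11 other genes called in double mutant, 11 kept the call with either pseudocount, no trend or median-of-ratios factors, 10 with quantile normalization or the higher filter, 9 with the replicate block (lost: Vamp8 and Foxa2) or without the 50 highest genes, 8 joined, 7 with sex, 3 with no filter, and 1 to 7 without 1 library. With no filter more genes were tested, and the standard errors of Spink4 and Tff3 rose as given above. Which of these cost the calls was not tested. Some genes not called above in double mutant passed in other fits. Galnt3 did without control 0 (limma adjusted p = 0.0208) and joined (0.044), and Galnt2 in 3 fits (0.039 to 0.0475). Sdf2l1 (0.0413) and Ern1 (0.0441) passed with the replicate block, Creb3l2 with sex (0.0353) and Pdia6 with quantile normalization (0.0411). In Smad4 KO the joined fit, which takes its spread from all 9 libraries, called Clca3, St3gal4, Scin and Capn9 (limma adjusted p 0.0381, 0.0263, 0.0307 and 0.0437). Over all genes the double mutant calls were 1104 higher and 1069 lower, against 453 and 260 with no filter, 732 and 870 with the replicate block, and 18 to 688 and 12 to 898 on leaving out 1 library, the fewest without double mutant 2. In Smad4 KO they were 1 higher and 3 lower, against 4 and 4 with quantile normalization, 4 and 3 without the 50 highest genes, 0 and 1 with the block, 272 and 179 joined, and 2 to 8 and 3 to 8 on leaving out 1 library. Depth is unknown, so counting error could not be set beside the spread between libraries.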

Other observations

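Retnlb, a resistin-like protein secreted by goblet cells, varied widely between libraries. It was at 0, 4.381 and 10.4 FPKM in Smad4 KO, against 108.6, 26.9 and 0.4585 FPKM in control, and at 12.42, 1.889 and 1.428 FPKM in double mutant, against 111.9, 28.5 and 0.4782 FPKM in control (limma adjusted p = 0.548 and 0.43, not called). Within each group the library with the most Retnlb was also the one with the most Spink4. Tff1 was listed at 0 in all 9 libraries, and Muc5ac at 0.01866 FPKM in Smad4 KO 0 and at 0 in the other 8; both are stomach products. A list of 11 blood, pancreas and stomach markers summed to 3.262, 2.876 and 40.07 FPKM in Smad4 KO, against 5.586, 2.014 and 1.902 FPKM in control, and to 28.36, 2.392 and 3.564 FPKM in double mutant, against 5.76, 2.134 and 1.983 FPKM in control. Most of the sum in Smad4 KO 2 and double mutant 0 was Hbb-b1, a haemoglobin gene, at 38.51 and 26.09 FPKM. The cell surface protein Lypd8, which keeps flagellated bacteria from the epithelium in the mouse colon, was at 2618, 1618 and 1963 FPKM in Smad4 KO, against 1794, 1936 and 3429.6 FPKM in control, and at 1781, 1839 and 1573 FPKM in double mutant, against 1849.5, 2051 and 3577 FPKM in control. It was highest in Smad4 KO 0, double mutant 1 and control 2, the libraries that were highest in Zg16 within each group.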
